A study of Mus musculus with 6 samples.

Results

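The core circadian clock genes were followed in gastrocnemius muscle of mice bearing C26 tumors and of control mice. The members were named by symbol as Bmal1 (Arntl in the reference annotation), Clock, Per1, Per2, Per3, Cry1, Cry2, Nr1d1, Nr1d2 and Dbp, and 10 of these 10 were among the 13363 genes listed. The C26 group (n = 3 muscles) came from Balb/c mice with the C26 model, in which mouse colon carcinoma cells are placed under the skin of the flank and the animals lose muscle. The Control group (n = 3 muscles) came from Balb/c mice without a tumor, and the study's methods describe all animals as young males. The comparison asks which genes of the muscle changed with the tumor. No genetic change or drug was part of either group, the tumor came from 1 cell line, and nothing in the labels says whether the replicates were separate mice, so the p-values measure the spread between these samples.

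The clock is a feedback loop of transcription. BMAL1 and CLOCK pair and switch on genes through DNA elements called E-boxes, among them the Per and Cry genes, whose proteins then block the pair. A side loop runs through the nuclear receptors REV-ERB alpha and beta (Nr1d1, Nr1d2), which repress Bmal1 at elements where the ROR receptors activate it, and DBP carries the rhythm on to genes with D-box elements. In skeletal muscle the clock is known for daily rhythms in genes of fuel use. The hour at which each muscle was collected was not given in the sources used here, so a changed level and a shifted phase of the clock cannot be told apart.

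Levels are given in FPKM, the deposited unit, in which reads are divided by transcript length and by the size of the library. Fold changes, called log2 fold changes, are C26 minus Control on the log2(TPM + 1) scale after scaling between samples, which understates the change of genes with low levels. A gene was called higher or lower at a limma adjusted p under 0.05 (Benjamini-Hochberg over all listed genes), and called a DEG where the fold was also above 4. Read depth is unknown, since no counts were used here. The skeletal muscle markers were all listed (8 of 8), with summed levels of 36775 to 56524 FPKM in C26 muscle and 62858 to 66405 FPKM in control muscle. The FPKM of all genes summed to 531061 to 585169 in the C26 libraries and to 626992 to 688300 in the control libraries. After scaling, 1 muscle marker (Des) was higher and 7 were not called, with a median log2 fold change of 0.22. Some markers of other cells were also called. The summed adipocyte markers (7 of 7 listed, 5 lower) ranged from 258 to 369 FPKM in C26 and from 486 to 3609 FPKM in control muscle, and the fibroblast markers (6 of 6 listed, 3 lower) from 157 to 191 and from 317 to 377 FPKM. The red blood cell markers (4 of 5 listed, 4 higher) ranged from 615 to 1188 FPKM in C26 and from 329 to 508 FPKM in control muscle. The immune markers (4 of 7 listed) spanned 6.95 to 248 and 2.68 to 47.0 FPKM, the endothelial markers (5 of 5 listed, 1 lower) 32.3 to 36.4 and 40.1 to 56.1 FPKM, and the Schwann cell markers (4 of 4 listed) 11.8 to 29.0 and 20.5 to 72.7 FPKM. Among the immune markers, Cd68 was at 247 FPKM in C26 replicate 2 and Ptprc at 40.1 FPKM in Control replicate 3. Ptprc was at 0.23 to 0.81 FPKM in the other muscles. No immune or Schwann cell marker was called by limma, and 1 marker of each list had an unadjusted limma p under 0.05. No listed marker was at 0. The part of these values in the clock gene results was not tested, and in bulk muscle fewer cells of a type and less RNA per cell cannot be told apart.

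Of the 10 core clock genes, Bmal1, Clock, Per1 and Cry2 were higher in C26 muscle, Per3 and Dbp were lower, and Per2, Cry1, Nr1d1 and Nr1d2 were not called. Across all listed genes 19.4% were called higher and 14.5% lower. Bmal1 and Cry2 were upregulated DEGs and Dbp was a downregulated DEG, where 1.76% of all genes were upregulated and 1.73% downregulated DEGs. The median log2 fold change was -0.06 over the members and -0.05 over all genes. In FPKM, 8 of 10 members had every C26 muscle on one side of every control muscle, as had 53.3% of all genes, and in normalized values 6 of 10 had, as had 53.5% of all genes. With 3 muscles against 3, a two-sided exact permutation test cannot give a p under 0.1, and the called members reached that value. Among all calls 57.3% were higher in C26 muscle, and this share was 40.1% with FPKM as deposited, under which 3 members were higher and 3 lower. The count of members called lower was 1 without C26 replicate 1, without C26 replicate 2, without Control replicate 1 or without Control replicate 2, and 3 without Control replicate 3.

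**Figure D1:**
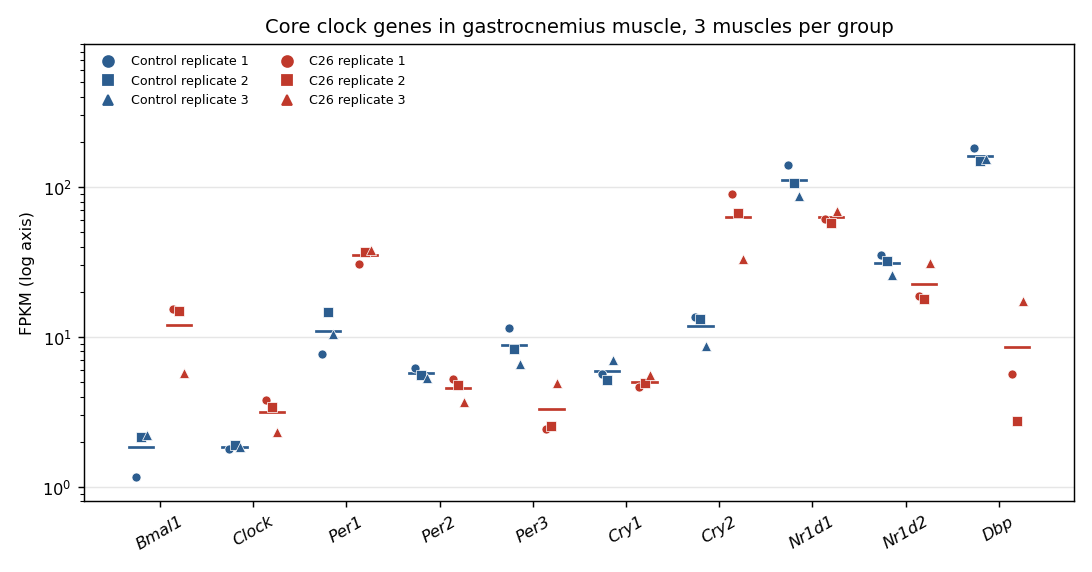
FPKM of each core clock gene in every muscle, on a log axis, with C26 and Control replicates as points and the group mean as a short line. Bmal1, Per1 and Cry2 lie higher in the 3 C26 muscles, and Dbp lies at 2.73 to 17.5 FPKM there against 150 to 181 FPKM in control muscle.

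**Figure D2:**
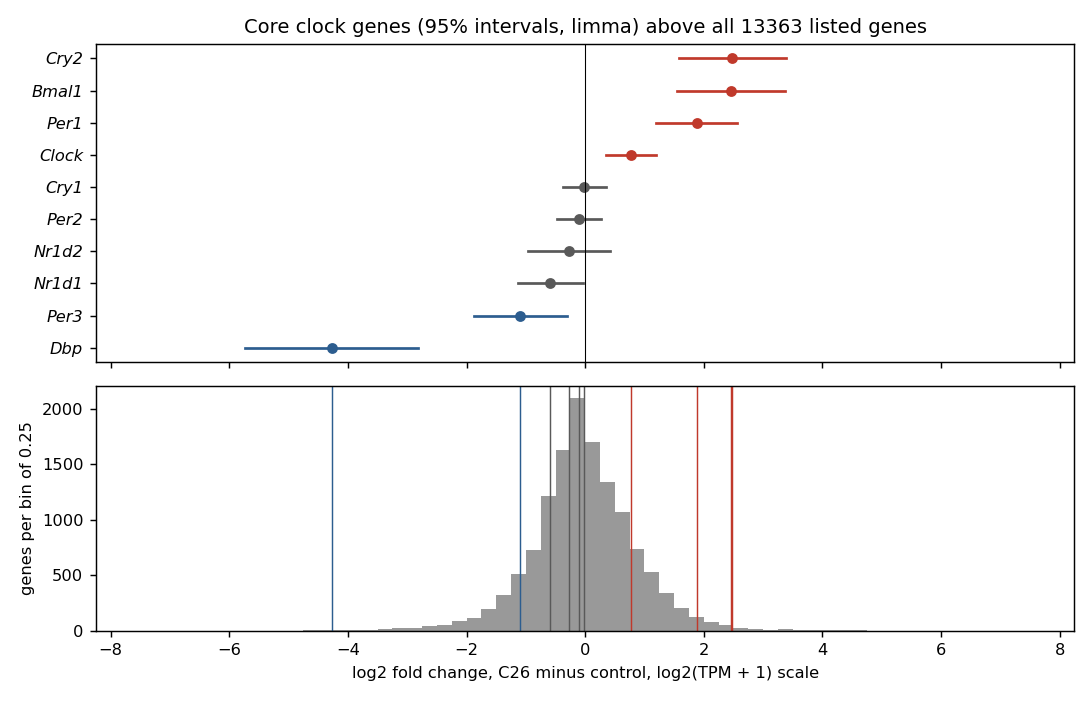
The upper panel gives the log2 fold change of each core clock gene with its 95% interval from limma, and the lower panel the number of genes per bin of log2 fold change over all 13363 genes, with the members as vertical lines. Red marks members called higher, blue those called lower and grey those not called, and Dbp sits far to the left of the bulk of genes.

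Within control muscle the output gene Dbp had the highest level of the members at 161 ± 16.9 FPKM (SD, n = 3), followed by Nr1d1 at 112 ± 27.1 FPKM and Nr1d2 at 31.1 ± 4.84 FPKM. These neighbours did not overlap. Cry2, Per1, Per3, Cry1 and Per2 came next, and each overlapped its neighbour in that order. Bmal1 and Clock were lowest, both at a mean of 1.84 FPKM. In C26 muscle Cry2 (63.4 ± 28.4 FPKM) and Nr1d1 (62.7 ± 6.20 FPKM) led and overlapped, and Dbp had moved down beside Bmal1 and Cry1, which it overlapped. Dbp made up 44.7%, 44.2% and 49.7% of the members' summed FPKM in the control muscles and 2.38%, 1.28% and 8.25% in the C26 muscles. The share of Cry2 was 37.8%, 31.6% and 15.7% in C26 muscle and 3.37%, 3.90% and 2.82% in control muscle.

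The activators were both higher in C26 muscle. Bmal1 measured 15.4, 14.8 and 5.76 FPKM in the C26 muscles and 1.17, 2.15 and 2.21 FPKM in the control muscles. The groups did not overlap, and C26 replicate 3 lay below the other C26 muscles. The log2 fold change was 2.46 (SE 0.38, 95% interval 1.54 to 3.37), a 5.49-fold increase with a limma adjusted p of 0.00698. Clock, the partner of BMAL1, measured 3.80, 3.39 and 2.31 FPKM in C26 and 1.79, 1.89 and 1.84 FPKM in control muscle. Its values did not overlap, with control muscles close together. The increase was 1.71-fold (log2 fold change 0.77, SE 0.18, limma adjusted p = 0.0187). The call for Clock was lost without C26 replicate 1, C26 replicate 2 or Control replicate 1, at adjusted p of 0.0714, 0.0630 and 0.0723. It was also lost with FPKM as deposited (adjusted p = 0.0505) and with an ordinary linear model (adjusted p = 0.0512).

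The RefSeq windows from 250 bases before to 50 bases after a start (GRCm38.p6) were searched on both strands for elements of the loop, and 9 of 10 members had a window. Per2 had no entry. The ROR element was taken as TAGGTCA or TGGGTCA after an A and any 2 bases, and these forms were present in 0.7% and 0.913% of 32851 windows. Bmal1, which lies on the plus strand of chromosome 7 (113178471 to 113314126), held the first form just after a start, at chr7:113207528-113207557, shown with the match in capitals because this is the kind of element through which ROR and REV-ERB receptors are known to act on Bmal1:
Bmal1: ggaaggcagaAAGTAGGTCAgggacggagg

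The Per genes, whose proteins join CRY proteins in blocking BMAL1 and CLOCK, were called higher (Per1), called lower (Per3) or not called (Per2). Per1 measured 30.6, 36.9 and 38.2 FPKM in C26 and 7.68, 14.7 and 10.4 FPKM in control muscle. All C26 muscles lay above all control muscles. The log2 fold change was 1.88 (SE 0.28), a 3.68-fold increase (limma adjusted p = 0.00653), which is below the fold asked of a DEG. Per2 measured 5.21, 4.77 and 3.69 FPKM in C26 and 6.24, 5.54 and 5.33 FPKM in control muscle. The FPKM did not overlap, but the normalized values did. Its log2 fold change was -0.11 (95% interval -0.48 to 0.27, limma adjusted p = 0.618). Per3 measured 2.43, 2.55 and 4.90 FPKM in C26 and 11.5, 8.24 and 6.60 FPKM in control muscle. The groups did not overlap, although C26 replicate 3 and Control replicate 3 lay closest to each other. Per3 was 2.14-fold lower (log2 fold change -1.10, SE 0.33, 95% interval -1.88 to -0.31, limma adjusted p = 0.0430). Leaving out 1 muscle gave adjusted p from 0.0100 to 0.139 for Per3, and the call was lost without C26 replicate 1, C26 replicate 2, Control replicate 1 or Control replicate 2. The Per3 call was also lost with the replicate number as a block (adjusted p = 0.106) and with an ordinary linear model (adjusted p = 0.117).

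The Per promoters are shown for the elements they hold. The E-box, searched as CACGTG, was present in 7.15% of windows, and the D-box, searched as TTATGTAA, in 0.938%. Per1 held 1 E-box at positions -166 to -161 from a start. Per3 held 2 D-boxes, and at least 2 matches of this form were present in 0.0213% of windows (7 windows). The other D-box form searched, TTACGTAA, was present in 0.119% of windows, and the cAMP response element TGACGTCA in 1.79%, with no match of either in a member. The stretches, with matches in capitals, are chr11:69098743-69098828 on the plus strand for Per1 and chr4:151044776-151044900 on the minus strand for Per3:
Per1: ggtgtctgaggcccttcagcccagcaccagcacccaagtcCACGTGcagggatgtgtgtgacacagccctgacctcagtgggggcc
Per3: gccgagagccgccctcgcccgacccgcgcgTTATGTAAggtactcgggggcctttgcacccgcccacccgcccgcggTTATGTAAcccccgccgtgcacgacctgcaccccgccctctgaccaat

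Of the paralogous repressors, Cry2 was higher and Cry1 was not called, and the difference between their responses was not tested. Cry2 measured 89.6, 67.3 and 33.3 FPKM in C26 and 13.7, 13.2 and 8.71 FPKM in control muscle. The groups did not overlap, with replicate 3 the lowest muscle of each. The log2 fold change was 2.48 (SE 0.38, 95% interval 1.58 to 3.39), a 5.59-fold increase (limma adjusted p = 0.00663). Cry1 measured 4.60, 4.92 and 5.55 FPKM in C26 and 5.69, 5.19 and 6.96 FPKM in control muscle. These values overlapped, and the log2 fold change was -0.02 (95% interval -0.38 to 0.35, limma adjusted p = 0.933). In the annotation 4.67% of the exon bases of Cry2 are shared with D930015M05Rik on the opposite strand.

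Both Cry promoters held the related E-box form CACGTT, present in 4.68% of windows and read here as AACGTG on the strand of the gene. Cry1 also held the E-box CACGTG, so that its window holds both forms and that of Cry2 1 of them. The stretches are chr10:85185079-85185163 for Cry1 and chr2:92434190-92434275 for Cry2, both on the minus strand, with matches in capitals:
Cry1: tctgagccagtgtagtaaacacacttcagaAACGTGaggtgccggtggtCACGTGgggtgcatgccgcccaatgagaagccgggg
Cry2: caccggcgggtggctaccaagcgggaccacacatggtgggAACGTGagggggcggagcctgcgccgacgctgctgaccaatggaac

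The REV-ERB genes, repressors of Bmal1, were not called. Nr1d1 measured 61.0, 57.5 and 69.6 FPKM in C26 and 141, 106 and 87.7 FPKM in control muscle. The FPKM did not overlap, while the normalized values of C26 replicate 3 and Control replicate 3 crossed. The log2 fold change was -0.59 (SE 0.23, 95% interval -1.13 to -0.04, limma adjusted p = 0.0873). Nr1d1 was past the threshold with FPKM as deposited (log2 fold change -0.80, adjusted p = 0.0290), with quantile normalization (-0.997, adjusted p = 0.0216) and without Control replicate 3 (-0.79, adjusted p = 0.0272). Nr1d2 measured 18.8, 17.97 and 31.1 FPKM in C26 and 35.2, 32.3 and 25.8 FPKM in control muscle. C26 replicate 3 lay among the control muscles, and the log2 fold change was -0.27 (95% interval -0.96 to 0.42, limma adjusted p = 0.486). Of the exon bases of Nr1d1, 8.55% are shared with Thra on the opposite strand, which measured 34.2 to 44.4 FPKM in C26 and 30.2 to 39.9 FPKM in control muscle. The Nr1d1 promoter held 1 E-box of the form CACGTT close to the start, at chr11:98775378-98775445 on the minus strand, printed as AACGTG in capitals:
Nr1d1: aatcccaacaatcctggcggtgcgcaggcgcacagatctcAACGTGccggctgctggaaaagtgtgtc

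Dbp, an output gene of the clock that encodes an activator at D-boxes, had the largest difference of the members. It measured 5.63, 2.73 and 17.5 FPKM in C26 and 181, 150 and 154 FPKM in control muscle. The groups lay far apart, and C26 replicate 3 was the C26 muscle nearest to the controls. Dbp was 19.4-fold lower in C26 muscle (log2 fold change -4.28, SE 0.61, 95% interval -5.73 to -2.82, limma adjusted p = 0.00584), the 11th lowest log2 fold change of 13363 genes. Its log2 fold change was -3.68 without C26 replicate 2 and -4.90 without C26 replicate 3, and Dbp was called lower in both. Of its 2993 exon bases 539 are shared with Sphk2 on the opposite strand, and whether reads were counted by strand is not given in the sources used here. Sphk2 measured 16.3, 17.8 and 12.9 FPKM in C26 and 5.65, 6.37 and 9.32 FPKM in control muscle, and its part in the Dbp values was not tested. No element searched was found in the windows of Dbp, Nr1d2 or Clock, which says only that these letters are not in those windows.

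Ratios between members of 1 muscle do not depend on the scaling between muscles, and are given as log2 of the FPKM ratio. Bmal1 over Nr1d1 was -1.99, -1.96 and -3.59 in C26 and -6.91, -5.62 and -5.31 in control muscle. The ratio of this activator to its repressor was thus higher in every C26 muscle, by 3.43 on average. Bmal1 over Dbp was 1.45, 2.44 and -1.60 in C26 and -7.27, -6.12 and -6.12 in control muscle, so that Bmal1 exceeded Dbp in C26 replicates 1 and 2. Per1 over Per2 was 2.56, 2.95 and 3.37 in C26 and 0.30, 1.41 and 0.97 in control muscle. Cry1 over Cry2 was -4.28, -3.77 and -2.58 in C26 and -1.26, -1.35 and -0.32 in control muscle. Clock over Bmal1 was -2.01, -2.13 and -1.32 in C26 and 0.61, -0.19 and -0.26 in control muscle. Nr1d1 over Nr1d2 differed least, by -0.31. These ratios rest on the same values as the levels above and were given no test.

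**Figure D3:**
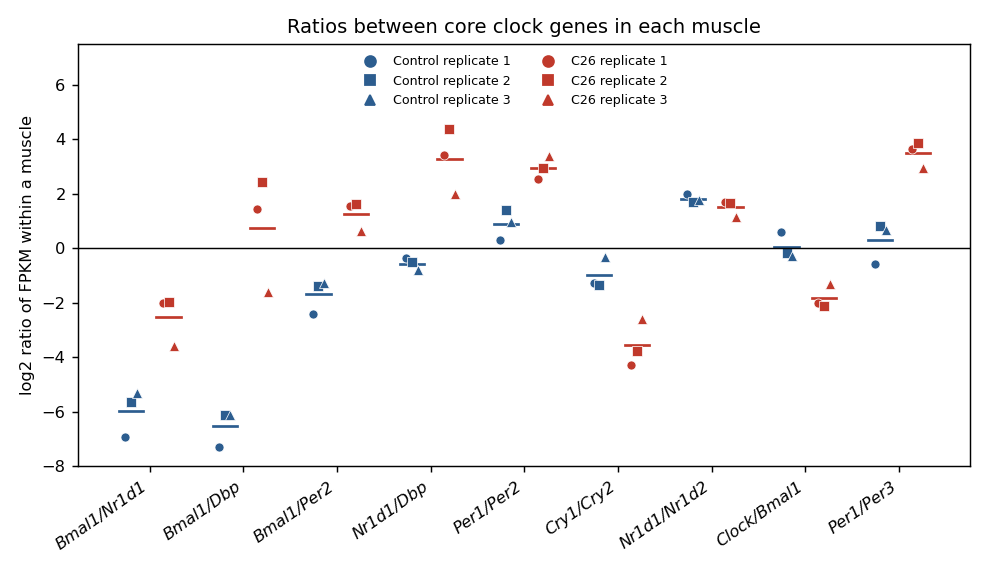
Log2 ratios of FPKM between pairs of core clock genes in each C26 and Control muscle, with the group mean as a short line. The Bmal1 over Dbp ratio separates the groups most, at -1.60 to 2.44 in C26 and -7.27 to -6.12 in control muscle.

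Of 19 other clock genes, 18 were listed, and 9 were higher, 2 lower and 7 not called, with a median log2 fold change of 0.52, where 19.4% of all genes were higher and 14.5% lower. The count higher was 6 with FPKM as deposited, with the replicate number as a block, and without C26 replicate 1, C26 replicate 2 or Control replicate 1. Rora, which encodes a ROR receptor that activates Bmal1, was an upregulated DEG. It measured 54.1, 31.7 and 25.8 FPKM in C26 and 8.90, 8.55 and 7.84 FPKM in control muscle, a 4.60-fold increase (SE of the log2 fold change 0.27, limma adjusted p = 0.00418). The groups did not overlap, and C26 replicate 1 was the highest muscle. Rorb was near the lowest listed level, at 0.01 to 0.03 FPKM.

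The other factors that bind D-boxes did not move as 1 group. Nfil3, which represses at the sites where DBP activates, measured 46.1, 39.0 and 43.5 FPKM in C26 and 7.46, 9.61 and 9.96 FPKM in control muscle. It was an upregulated DEG (log2 fold change 2.39, SE 0.18, limma adjusted p = 0.00140). Hlf, an activator related to Dbp, measured 0.93, 0.84 and 1.06 FPKM in C26 and 5.29, 5.28 and 3.59 FPKM in control muscle. Hlf was lower (log2 fold change -1.61, SE 0.21, limma adjusted p = 0.00493). Tef, the other related activator, was at 87.5 ± 13.7 FPKM in C26 and 78.8 ± 12.4 FPKM in control muscle (SD, n = 3), and was not called (limma adjusted p = 0.239).

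Among the repressors at E-boxes, Bhlhe41 (DEC2) was lower, at 4.11 ± 0.53 FPKM in C26 and 14.1 ± 2.07 FPKM in control muscle (log2 fold change -1.44, limma adjusted p = 0.00424). Its relative Bhlhe40 measured 11.2, 11.8 and 26.1 FPKM in C26 and 38.2, 36.7 and 23.2 FPKM in control muscle. The muscles of replicate 3 crossed, and Bhlhe40 was not called (limma adjusted p = 0.155), but was past the threshold without C26 replicate 3 (adjusted p = 0.0227). Ciart (CHRONO) had a log2 fold change of 0.85 and was not called (limma adjusted p = 0.137).

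Some of the other clock genes act on the stability of PER and CRY proteins. Csnk1d, a kinase of PER, measured 42.5, 40.6 and 36.9 FPKM in C26 and 20.5, 20.5 and 21.4 FPKM in control muscle (log2 fold change 1.13, limma adjusted p = 0.00354). Fbxw11, a ubiquitin ligase subunit that targets PER, had a log2 fold change of 1.47 (limma adjusted p = 0.00618). Csnk1e (0.77), Btrc (0.51) and the Clock paralog Npas2 (0.54) passed with limma adjusted p of 0.0214, 0.0374 and 0.0350. The calls of these 3 genes were lost in several alternatives, and Npas2 was at 0.01 to 0.12 FPKM in control muscle. Usp2, a deubiquitinase, had a log2 fold change of -0.17 (limma adjusted p = 0.668).

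**Figure D4:**
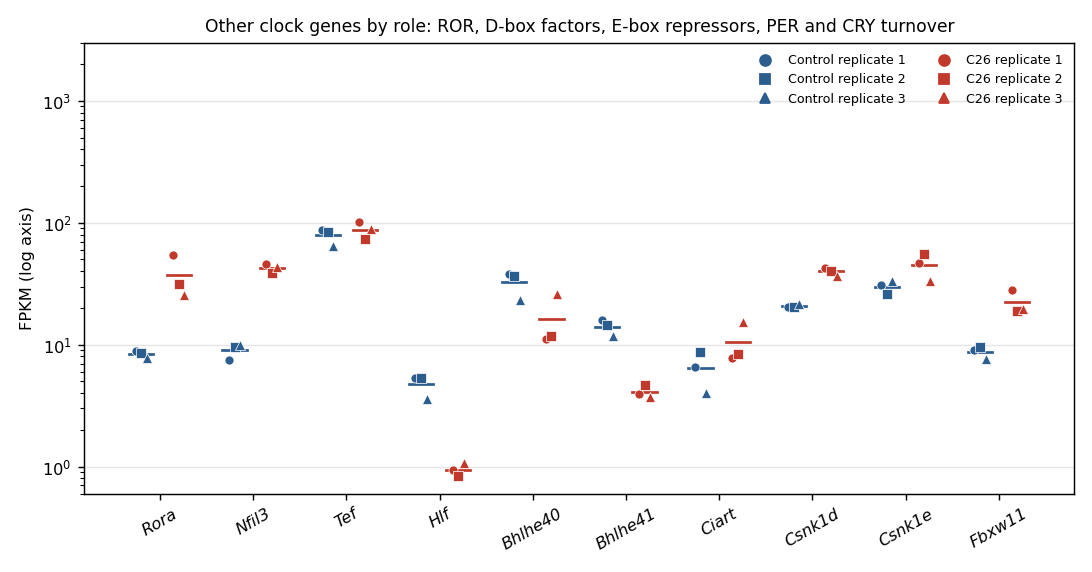
FPKM of other clock genes in each C26 and Control muscle, on a log axis, with the group mean as a short line. Rora and Nfil3 lie higher and Hlf and Bhlhe41 lower in all 3 C26 muscles, while Bhlhe40 of the replicate 3 muscles crosses.

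**Figure D5:**
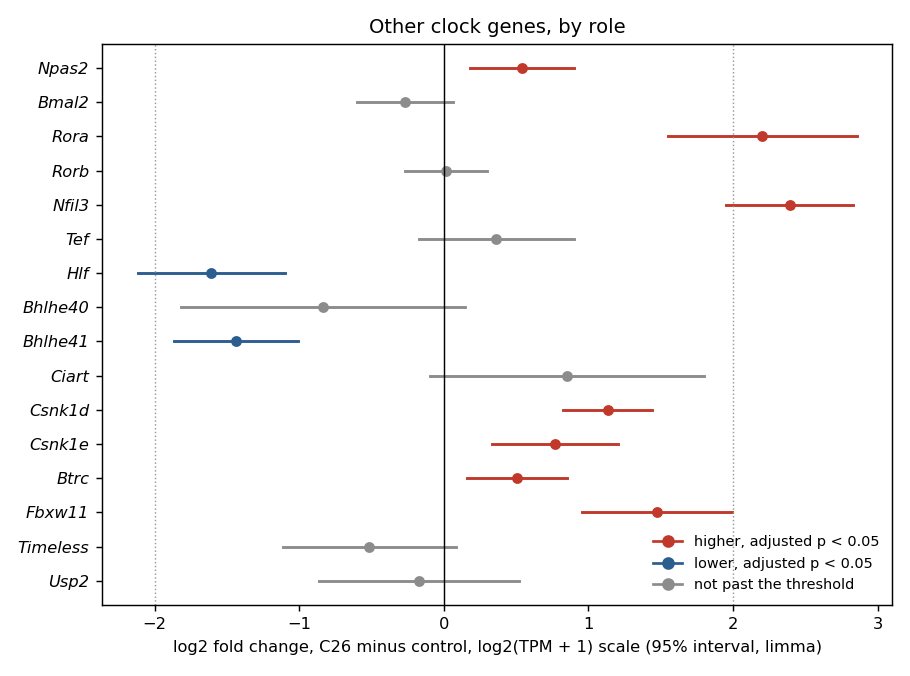
Log2 fold change (C26 minus Control) of other clock genes with 95% intervals from limma, on the log2(TPM + 1) scale, with dotted lines at a fold of 4. Rora and Nfil3 lie to the right of the upper line, and Hlf and Bhlhe41 are the genes called lower.

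Genes known to follow the clock in muscle were listed for 9 of 9, with 4 higher, 1 lower and 4 not called, beside the 19.4% of all genes higher and 14.5% lower. Pdk4, a kinase that shuts off pyruvate dehydrogenase, measured 1408, 940 and 1190 FPKM in C26 and 92.4, 123 and 57.0 FPKM in control muscle (log2 fold change 3.96, SE 0.36, limma adjusted p = 0.00197). Ucp3, a mitochondrial carrier of muscle, rose from 54.1 ± 9.97 to 185 ± 24.1 FPKM (limma adjusted p = 0.00355). Nampt, the enzyme of NAD salvage, rose with a log2 fold change of 1.18 (limma adjusted p = 0.0121), and Por, the reductase that serves cytochrome P450 enzymes, with one of 1.40 (limma adjusted p = 0.0177). Myod1, a transcription factor of the muscle lineage, measured 1.24, 3.36 and 4.12 FPKM in C26 and 14.6, 16.4 and 13.6 FPKM in control muscle, and was a downregulated DEG (log2 fold change -2.05, SE 0.38, limma adjusted p = 0.0108). Coq10b (0.84), Hk2 (0.04), Tcap (-0.32) and Wee1 (-0.38) were not called, with log2 fold changes in parentheses.

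C26 replicate 3 was the C26 muscle nearest to the controls for 5 of the 6 called members (83.3%), namely Bmal1, Clock, Per3, Cry2 and Dbp, and lay between the other C26 muscles and the controls in each. It was the nearest C26 muscle for 6 of 11 called other clock genes (54.5%) and for 3013 of 4521 called genes overall (66.6%). In Mb and Myh1, by contrast, this muscle lay above all other muscles of both groups. Mb, the myoglobin gene, was at 4906 FPKM against 275 and 74.0 FPKM in the other C26 muscles and 578 to 1569 FPKM in control muscle. Myh1, a fast myosin, was at 2555 FPKM against 299 and 254 FPKM in the other C26 muscles and 92.8 to 331 FPKM in control muscle. Without C26 replicate 3, the log2 fold changes of Bmal1, Cry2 and Dbp kept their direction and their call.

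By Pearson correlation of normalized log2 values over the 6 muscles, the genes most like Bmal1 were Rab40c (r = 0.9995), Senp6, Cfap97, Ap2b1 and Setdb1, and those most like Nr1d1 were Eda (r = 0.9988), Scarf1, Cyp2j6, Lmod1 and Fzd2. The 6 points share their libraries and fall into the C26 and Control groups, so these correlations are a description and no p is given. A correlation takes no account of the level or the size of a change. The genes most like Bmal1 were 1.56- to 2.08-fold higher, beside 5.49-fold for Bmal1. Those most like Nr1d1 were at 0.17 to 5.61 FPKM and were not called.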

How the data were processed

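Gastrocnemius RNA of 3 C26 and 3 Control muscles was analysed from the table of FPKM values per gene that the authors deposited. The study's methods describe removal of ribosomal RNA, single-end sequencing and alignment with Bowtie2 to GRCm38. The submitters' processing notes name mm9, HISAT2 2.0.4, Bowtie2 2.2.5 and RSEM 1.2.12, with no role, so the build is uncertain and no coordinate was taken from the table. The extraction text in the labels names another cell type than muscle, and the muscle markers were therefore checked. Read depth is unknown, and strandedness is not given in the sources used here.

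FPKM were scaled to TPM (sum of 1000000) and by trimmed mean of M values (trimming 30% of the log ratios and 5% of the mean levels), and log2(TPM + 1) values were tested with limma 3.58.1 in R 4.3.3, with Benjamini-Hochberg adjustment over 13363 genes. The code of the fit was run on simulated data with few or no changed genes. That run does not show how the fit performs on these data. Genes called at an adjusted p under 0.05 with a fold above 4 were DEGs. Every core clock gene was named, as were members of the lists of other clock genes and clock-controlled genes, and the 5 genes most correlated with Bmal1 and Nr1d1. Some genes of these lists enter the counts and are not reported here by name. The members and lists were chosen with earlier results of these data known. Alternatives were a pseudocount of 0.1, a filter at a mean of 1 TPM, TPM without that scaling, FPKM as deposited, quantile normalization, a replicate block, an intensity trend, an ordinary linear model and leaving out each muscle. Promoter sequences came from RefSeq (GRCm38.p6), and exon overlaps from GENCODE on GRCm38. Figures were drawn with matplotlib 3.10.9 in Python 3.11.15.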

Additional observations from a re-analysis of the deposited data

How the results depend on the processing

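Bmal1, Per1, Cry2 and Dbp kept their direction and call in the 8 other settings and the 6 fits without 1 muscle. With FPKM as deposited, 1678 genes were higher and 2504 lower, the log2 fold change of Clock was 0.54 (adjusted p = 0.0505) and that of Nr1d1 -0.80 (adjusted p = 0.0290), and the median of all genes moved from -0.05 to -0.14. Quantile normalization gave -0.997 for Nr1d1 (adjusted p = 0.0216). The ordinary linear model called 1525 genes higher and 959 lower, and 1 member lower, with Clock at 0.77 (adjusted p = 0.0512) and Per3 at -1.10 (adjusted p = 0.117). The replicate block called 1839 genes higher and 1235 lower, and 1 member lower, with Per3 at -1.10 (adjusted p = 0.106). Deviations of same-numbered muscles from their group means had correlations of -0.0394, -0.0843 and -0.112. With 3 muscles per group these values cannot show whether the muscles were paired, and the study's methods describe no pairing. Without 1 muscle, 1127 to 3311 genes were higher and 669 to 2160 lower, and 1 to 3 members were lower, with log2 fold changes of -4.90 to -3.68 for Dbp, 0.65 to 0.99 for Clock, -1.34 to -0.92 for Per3, -0.79 to -0.43 for Nr1d1 and -0.48 to -0.10 for Nr1d2. Without both replicate 3 muscles, chosen after seeing the data, 3780 genes were higher and 2805 lower, and 4 members were lower, with Per3 at -1.54, Nr1d1 at -0.81 (adjusted p = 0.0113) and Nr1d2 at -0.63 (adjusted p = 0.0144). The causes were not tested.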
